A study of Mus musculus with 24 samples.

Results

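Hind limb unloading was followed in gastrocnemius and plantaris muscle as a single response, the change from weight bearing (WB) to hind limb unloaded (HU) mice averaged over 3 genotypes, and the genes and functions that moved alike in the 3 genotypes are described. All 24 of the 24 arrays of the series entered, 12 HU and 12 WB, and the average is the mean of the 3 within-genotype log2 changes, so that each genotype counts equally. The genotypes were wild type (WT, B6129PF2/J), Nfkb1-/- (B6;129P2-Nfkb1tm1Bal/J), which lacks p50, and Bcl3-/- (FVB;129P2-Bcl3tm1Ver/J), which lacks Bcl-3, and both knockouts are whole-body deletions. The mice were males of 6 weeks of age, and the HU mice had been suspended for 6 days while the WB mice walked freely. Each of the 6 groups held 4 arrays, each of the muscle RNA of 1 mouse. The averaging rule used no measured value.

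Muscle that carries no load loses fibre size within days, because less protein is made and more is broken down by the ubiquitin and proteasome system and by autophagy. The transcription factor p50 and its partner Bcl-3, a nuclear protein of the IκB family that lets p50 dimers activate genes, are known to be needed for much of the atrophy in this model. The comparison asks which genes answered unloading to a like extent whether or not p50 or Bcl-3 was present.

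The Bcl3-/- arrays stand on another intensity scale, with medians of 81.1 to 86.8 against 11.6 to 11.9 for the 16 WT and Nfkb1-/- arrays. Intensity scale, strain background and Bcl3 genotype go together and cannot be told apart, so levels were never compared between the scales and each change was taken within its genotype. The deletions could not be checked on these arrays, since the annotation lists none of the probe sets as Nfkb1, while that of Bcl3 is on different scales, at 5.39 ± 0.679 (SD, n = 4) in WT WB and 48.1 ± 6.87 (SD, n = 4) in Bcl3-/- WB muscle. Of the arrays, Bcl3-/- WB replicate 2 and replicate 4 lay farthest from their group mean, by 0.202 and 0.167 log2 units over all tested probe sets. WT WB replicate 4 was close to the second of these, at 0.161, and the nearest array was at 0.0787. Counts are given with and without the 2 Bcl3-/- WB arrays. Markers of skeletal muscle fibres summed to 50590.2 to 51630.1 in WB and 51497 to 52166 in HU muscle of WT mice. In Nfkb1-/- mice the sums were 51475 to 51854 and then 49808 to 50654, so every HU array lay below every WB array. In Bcl3-/- mice they were 149007 to 159902 and 152774 to 157593. These are bright genes on quantile-normalized arrays, where sums are held close together, so they do not measure fibre content.

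On average over the genotypes, unloading changed 4081 of 19294 tested probe sets at a Benjamini-Hochberg adjusted p under 0.05 in limma, 2433 higher (12.6% of those tested) and 1648 lower (8.54%). In genes, with 1 probe set a gene, 1393 of 11098 were higher (12.6%) and 1021 were lower (9.2%), which is the background for every list below. That background includes genes not above the minimum on both scales, which 5966 of the 11098 passed. Of the 9715 probe sets that passed, 1978 were higher and 1192 lower. The background is therefore low for lists whose genes nearly all passed, such as RNA processing (29 of 29) and the proteasome (45 of 46). The changes of the 4081 probe sets were small, with a median size of 0.27 on the log2 scale, and 266 of the higher and 238 of the lower probe sets reached 1.4-fold. With the WT and Nfkb1-/- arrays alone 1474 probe sets were higher and 1569 lower, and with the Bcl3-/- arrays alone 799 were higher and 242 lower. These are separate fits of 16 and 8 arrays with unequal power, as are the counts by scale for the lists below. Such counts do not measure how strongly a genotype responded. In the fit of all 24 arrays, 446 probe sets were called higher and 320 lower in WT. There were 925 and 1271 in Nfkb1-/- and 1465 and 542 in Bcl3-/- mice. Without the 2 Bcl3-/- WB arrays with the largest deviations, the average called 2124 higher and 1916 lower.

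A call on the average does not show that the genotypes responded alike, and the called probe sets were therefore divided by how close the 3 responses lay. The change had the same sign in all 3 genotypes for 3524 of the 4081 (86.4%) and the opposite sign in at least 1 genotype for 557. For 1207 (29.6%), 872 higher and 335 lower, the 95% interval of the difference between every pair of genotypes lay within 1.5-fold, with the same sign in all 3 and with intensities above 20 on at least 4 arrays of each scale, and these are called alike below. Their changes were mostly small, with a median size of 0.22 and a maximum of 0.72 log2 units. The 1.5-fold margin is wider than most of these changes, so a like response can still be near 0 in a genotype. Of the 1207, 65 were also called in each genotype on its own. For 176 (4.31%) an interaction of genotype and unloading passed the test, against 371 (1.92%) of all tested probe sets. The remaining 2698 (66.1%) were neither, and for these the arrays do not decide whether the responses are alike. Leaving out both Bcl3-/- WB arrays with the largest deviations left 1192 alike and 59 with an interaction.

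**Figure D1:**
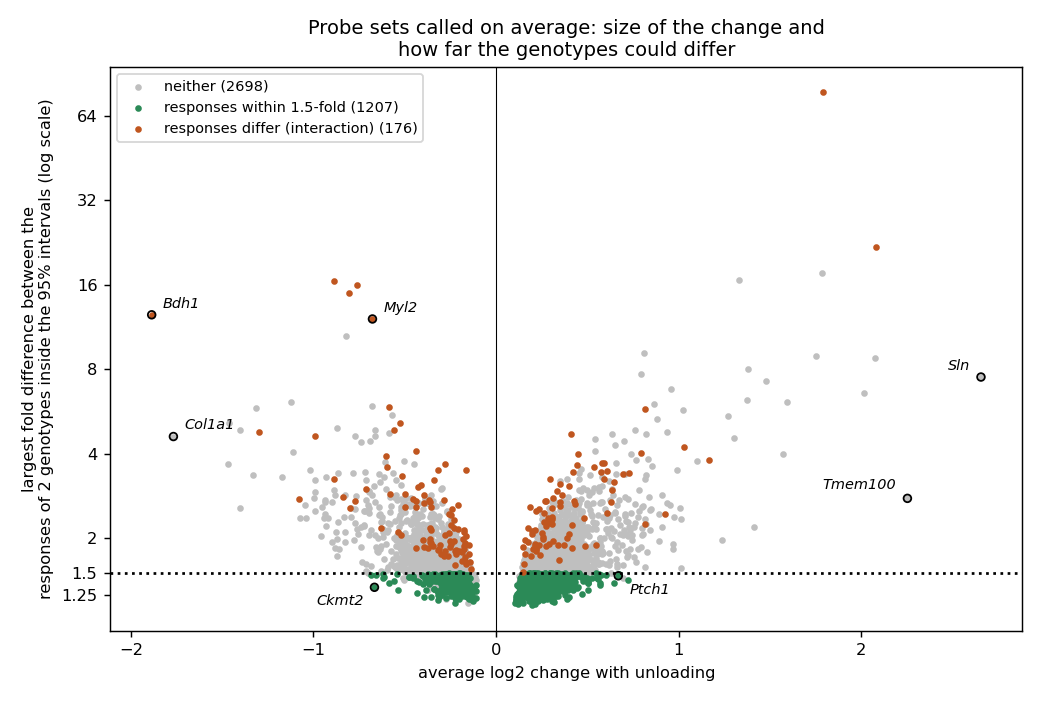
Each point is 1 of the 4081 probe sets called on average. The x axis gives the average log2 change with unloading and the y axis, on a log scale, the largest fold difference between the responses of 2 genotypes that the 95% intervals allow. The green points under the line at 1.5-fold are the 1207 with like responses, and the points with an interaction (176) lie above the line. Ckmt2 and Ptch1 lie under it, while Sln, Col1a1, Bdh1 and Myl2 lie far above.

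A stricter reading asks for a call in each genotype on its own, and 75 probe sets (0.389%, 55 genes) were higher and 45 (0.233%, 38 genes) were lower in all 3. Of these, 43 of the higher and 22 of the lower also had like responses, and 1 in each direction had an interaction. Of the 4081 called on average, 1243 (30.5%) were called in no single genotype. The counts of calls in every genotype depended on single arrays. The 75 became 113 without WT HU replicate 2, 46 without WT HU replicate 3, 48 without WT HU replicate 4, 49 without Bcl3-/- HU replicate 1 and 47 without Bcl3-/- HU replicate 3. The 45 became 23 without WT HU replicate 3 or WT HU replicate 4, and 25 without WT WB replicate 1 or WT WB replicate 2. The 176 with an interaction became 99, 98 or 79 without Nfkb1-/- WB replicate 1, 2 or 4, 116 or 276 without Bcl3-/- WB replicate 2 or 3, and 82 or 104 without Bcl3-/- HU replicate 1 or 3. WB and HU arrays did not overlap in any genotype for 155 higher (0.803%) and 72 lower (0.373%) probe sets. Over all 19294 probe sets the log2 responses of WT and Nfkb1-/- mice correlated at r = 0.453, those of WT and Bcl3-/- mice at 0.357 and those of Nfkb1-/- and Bcl3-/- mice at 0.395, across probe sets that share arrays and are not independent.

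Among the genes whose WB and HU arrays overlapped in no genotype, the largest average rise was that of Sln (probe set 1420884_at), which encodes sarcolipin, a small inhibitor of the calcium pump of the sarcoplasmic reticulum. In WT mice its intensities were 13.9, 18.3, 17.5 and 11.8 on the WB arrays and 1024, 77.6, 103 and 127 on the HU arrays, in replicate order. In Nfkb1-/- mice they were 19.0, 15.1, 14.3 and 21.1 and then 75.8, 67.9, 44.0 and 108, and in Bcl3-/- mice 113, 140.1, 135 and 124 and then 529, 569.6, 744 and 847. Every HU array was above every WB array of its genotype, and WT HU replicate 1 was far above the other WT HU arrays. All WT WB arrays, and all Nfkb1-/- WB arrays except that at 21.1, lay under the intensity minimum of 20. The average log2 change was 2.66 ± 0.271 (SE, adjusted p = 6.66e-07), a 6.31-fold rise, with 3.57 in WT, 2.03 in Nfkb1-/- and 2.37 in Bcl3-/- mice. The responses of 2 genotypes could still differ by up to 7.49-fold within the intervals, so Sln rose in every genotype but is not shown to have risen equally.

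Tmem100 (1449533_at), a membrane protein known downstream of BMP receptor signalling in endothelium, was also raised in every genotype. The WT arrays read 65.4, 34.6, 42.2 and 50.3 under WB and 162, 89.2, 329.5 and 297 under HU. The Nfkb1-/- arrays read 53.7, 47.2, 84.4 and 52.8 and then 249, 313, 240.4 and 393, and the Bcl3-/- arrays 147, 288, 168 and 184 and then 956, 1242, 2102 and 382. No group pair overlapped, although the HU arrays spread widely. The average change was 2.25 ± 0.226 on the log2 scale (SE, adjusted p = 5.80e-07), with 2.05, 2.34 and 2.38 in WT, Nfkb1-/- and Bcl3-/- mice. Tmem100 was not among the probe sets called alike, whose average changes reached at most 0.72 log2 units.

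Klf10 (1416029_at), a zinc finger repressor first known as an early gene of TGF-beta signalling, was also called higher in each genotype. Its WT arrays lay at 16.7, 17.5, 26.1 and 27.5 under WB and at 51.1, 67.3, 42.5 and 52.5 under HU. The Nfkb1-/- arrays lay at 16.6, 15.1, 26.2 and 27.4 and then at 49.1, 77.8, 96.8 and 50.5, and the Bcl3-/- arrays at 161, 170.5, 199 and 208 and then at 369, 553, 619.9 and 299.5. The lowest HU array was well above the highest WB array in all 3 genotypes. Klf10 rose by 1.41 ± 0.142 log2 units on average (SE, adjusted p = 5.80e-07), with 1.30, 1.67 and 1.27 in WT, Nfkb1-/- and Bcl3-/- mice.

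**Figure D2:**
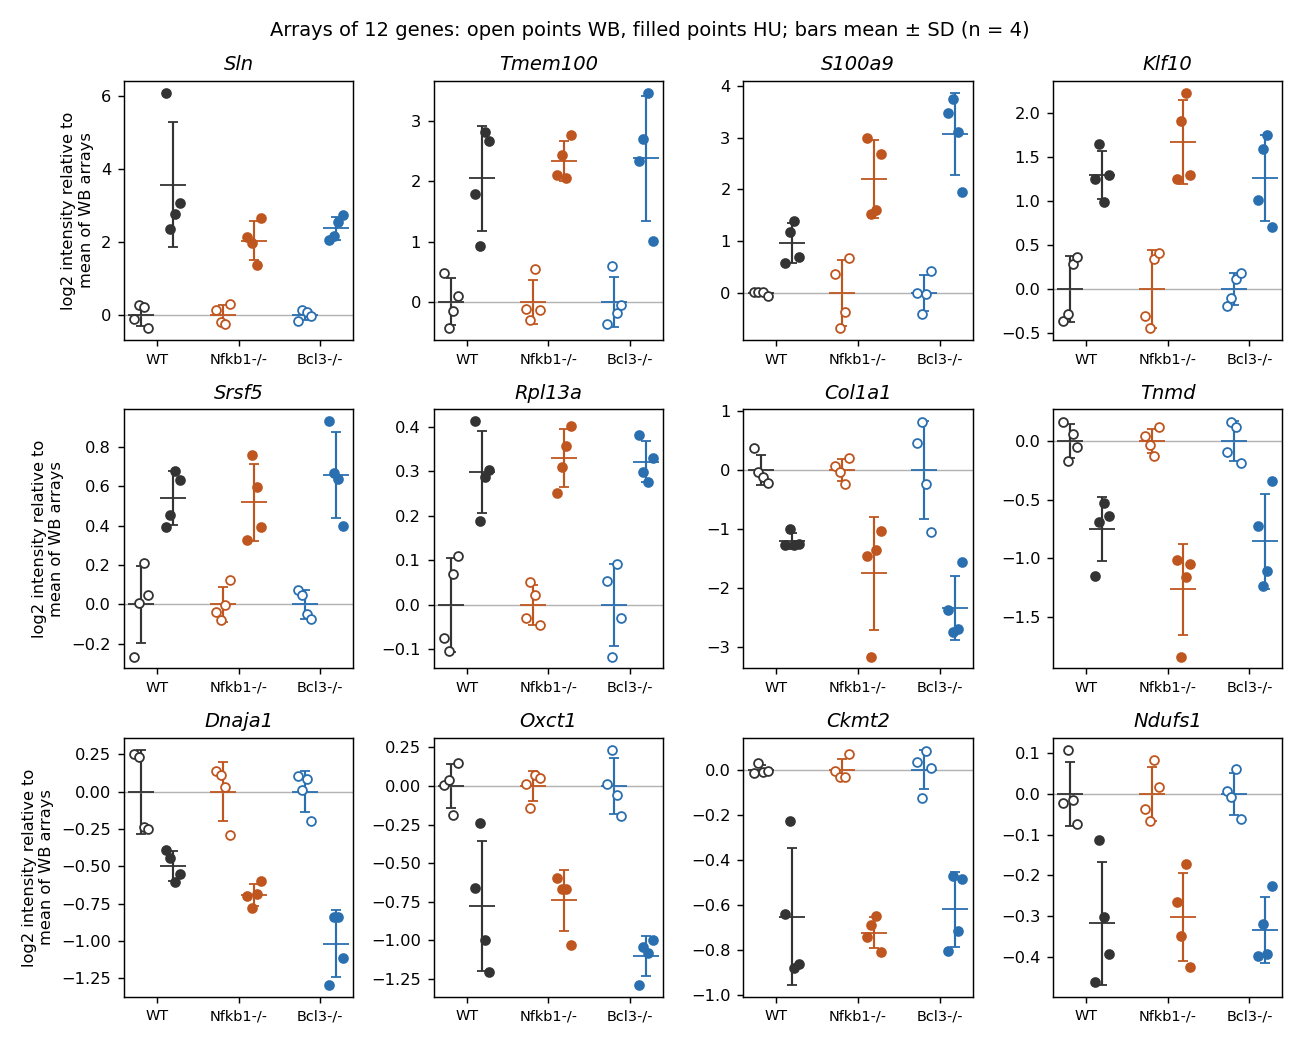
Log2 intensity relative to the mean of the WB arrays of the same genotype (y axis) for 12 genes, with 1 point per array, open for WB and filled for HU, and bars at the group mean ± SD (n = 4). No filled point overlaps the open points of its genotype in any panel, but most of these genes were chosen for that lack of overlap. WT HU replicate 1 stands far above the others for Sln.

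Further genes rose in all genotypes with no overlap of arrays. Pfkfb3, which makes the activator of the glycolytic enzyme phosphofructokinase, rose by 1.57 on average (0.83, 1.81 and 2.08 in WT, Nfkb1-/- and Bcl3-/- mice). Arrdc4, an arrestin-domain protein of the thioredoxin-interacting family that limits glucose uptake, rose by 1.02, although its second probe set gave 0.13. All its WT and Nfkb1-/- WB arrays lay under the intensity minimum of 20, at 8.80 to 16.1. WT HU replicates 1 and 2, at 19.0 and 19.2, and Nfkb1-/- HU replicate 2, at 16.7, were under it as well. Bhlhe40, a repressor tied to the circadian clock, rose by 0.89, and Apod, a lipid carrier of the lipocalin family, by 0.97. Chrnb1, a subunit of the acetylcholine receptor of the endplate, rose by 0.82, with responses of 1.18, 0.91 and 0.37 in WT, Nfkb1-/- and Bcl3-/- mice that differed (interaction adjusted p = 0.0414). Smyd2, a protein methyltransferase, rose by 0.81, Peg3, an imprinted zinc finger gene, by 0.73 and Fbxo9, an F-box subunit of a ubiquitin ligase, by 0.73. Gstm2, a glutathione transferase, rose by 0.93 and was called in each genotype, yet its responses of 1.34, 1.02 and 0.43 differed (interaction adjusted p = 0.0236). Myl4, an embryonic and atrial myosin light chain, rose by 0.81 on its brighter probe set and gave -0.02 on the other.

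**Figure D3:**
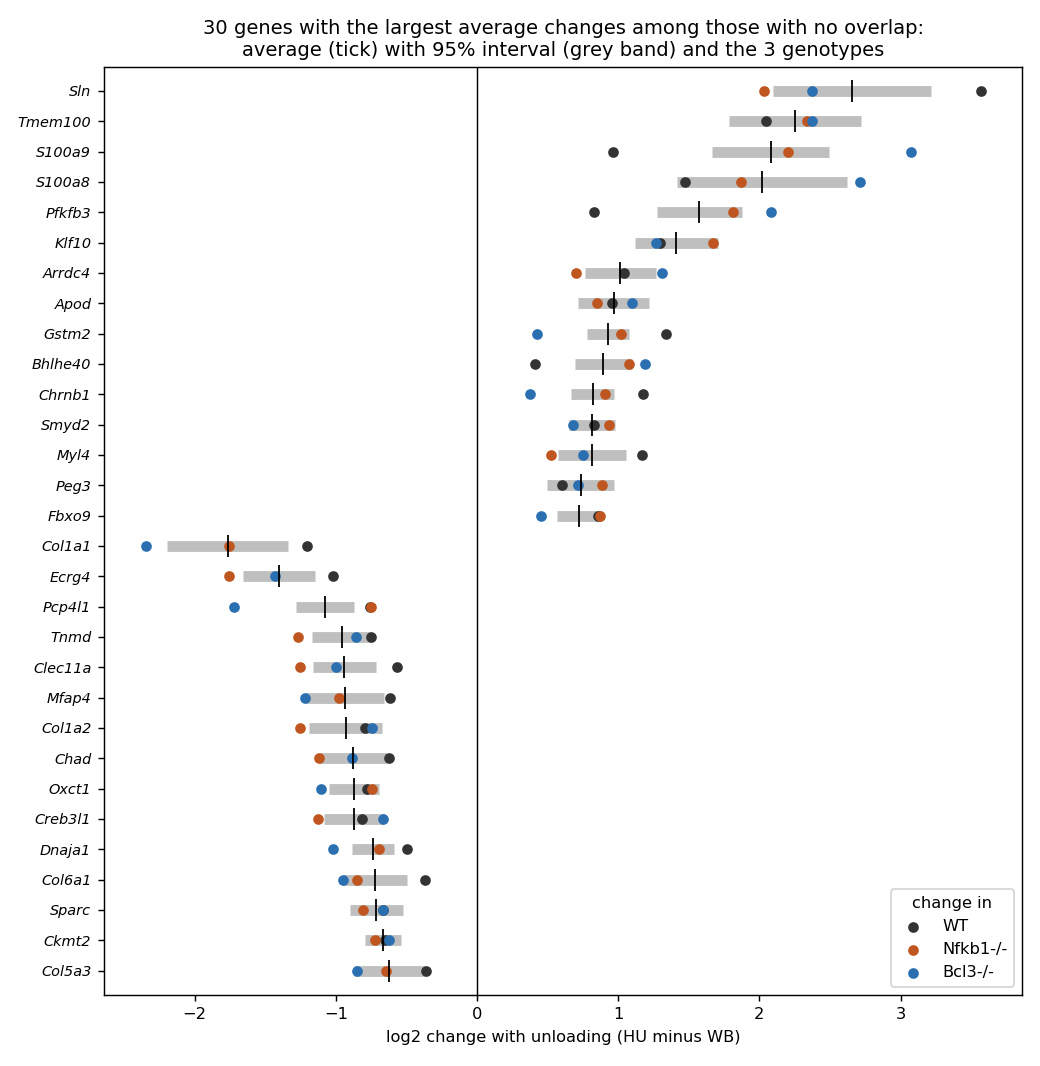
Log2 change with unloading (x axis) for the 15 higher and 15 lower genes with the largest average changes among those without overlap. The tick is the average, the grey band its 95% interval, and the points are the 3 genotypes. By that choice the points lie on the same side of 0 for every gene. They are close together for Ckmt2 and spread out for S100a9.

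The largest average fall among genes without overlap was that of a matrix gene. Col1a1 (1423669_at), the main chain of type I collagen, read 1409.8, 1065, 1007 and 940.1 under WB and 453, 545, 449.6 and 459 under HU in WT mice. Its values were 1033, 956, 830.0 and 1129 and then 357, 109, 384 and 477 in Nfkb1-/- mice, and 7239, 9284, 4447 and 2519.8 and then 1013, 782, 802 and 1772 in Bcl3-/- mice. All HU arrays were below all WB arrays of their genotype, with a wide spread in Bcl3-/- WB mice. Col1a1 fell by 1.77 on the log2 scale on average (SE 0.209, adjusted p = 3.30e-06), with -1.20, -1.75 and -2.35 in WT, Nfkb1-/- and Bcl3-/- mice, and the WT change alone missed the threshold (adjusted p = 0.0614). Its second probe set gave -0.59.

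Of 29 collagen and matrix genes tested, 19 fell and none rose (65.5% against 9.2% of all genes), with a median of -0.45 against -0.01 for all genes. Col1a2, the partner chain, fell by 0.93 on average, and the type VI chains Col6a1 and Col6a2 fell by 0.72 and 0.99. Col3a1, the chain of type III collagen, fell by 0.88. Serpinh1, the collagen chaperone of the endoplasmic reticulum, fell by 1.04 and Sparc, a collagen-binding matrix protein, by 0.71. Outside the list, the minor fibrillar chains Col5a3 and Col11a1 fell by 0.62 and 0.94, and Creb3l1, a transcription factor that drives collagen secretion, by 0.87. The list medians were -0.19 in WT, -0.56 in Nfkb1-/- and -0.64 in Bcl3-/- mice, and 2 of the 29 had like responses. Within the WT and Nfkb1-/- arrays 15 of the 29 were called lower, within the Bcl3-/- arrays 14, and without the 2 Bcl3-/- WB arrays with the largest deviations 20. These are whole-muscle samples, in which fewer cells of a type and less RNA per cell cannot be told apart.

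Tenocyte genes fell with the collagens. Tnmd (1417979_at), tenomodulin, a membrane glycoprotein of tendon cells, had WT arrays at 414, 329, 385 and 357 under WB and 167, 229, 256 and 237 under HU. In Nfkb1-/- mice these were 336, 319.8, 299.5 and 356 and then 161, 91.3, 147 and 158, and in Bcl3-/- mice 2501, 2981, 2894 and 2335 and then 1608, 1129, 1233 and 2099. WB and HU arrays did not overlap in any genotype. Tnmd fell by 0.96 on average (SE 0.102, adjusted p = 9.85e-07) and was called lower in each genotype, with -0.75, -1.27 and -0.86 in WT, Nfkb1-/- and Bcl3-/- mice. Of 11 tendon markers, 8 fell and 1 rose, with a median of -0.45 and nearly the same median in WT (-0.49), Nfkb1-/- (-0.42) and Bcl3-/- (-0.46) mice. Chad and Comp, matrix proteins of cartilage and tendon, fell by 0.88 and 0.62, and Comp had like responses. The member that rose was Prg4, the lubricant proteoglycan of joint and tendon surfaces, at 0.37.

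The summed intensity of the 11 tendon markers was 2335 to 2983 in WT WB and 1782 to 2502 in WT HU muscle, 2246 to 2439 and 1314 to 1862 in Nfkb1-/- mice, and 14836 to 18002 and 11162 to 16212 in Bcl3-/- mice. At least 8 of the 11 markers were above an intensity of 20 on every array. Summed fibroblast markers overlapped between WB and HU in each genotype, at 4299 to 4542 and 4143 to 4787 in WT, 4024 to 4673 and 4286 to 4869 in Nfkb1-/-, and 20469 to 22177 and 18951 to 21280 in Bcl3-/- mice. Among fibroblast markers, 3 of 10 fell and 1 rose, the former including Dpt and Lum, a matrix protein and a proteoglycan, by 0.35 and 0.53. How much tendon was dissected with the muscle, and its part in the fall of the matrix genes, was not tested. Other genes without overlap were Ecrg4, a secreted peptide precursor (-1.40), Clec11a, a secreted growth factor of the lectin family (-0.94), Mfap4, a microfibril-associated protein (-0.94), and Pcp4l1, a small protein related to the calmodulin regulator PCP4 (-1.08). The responses of Pcp4l1 differed between genotypes (interaction adjusted p = 0.0392).

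**Figure D4:**
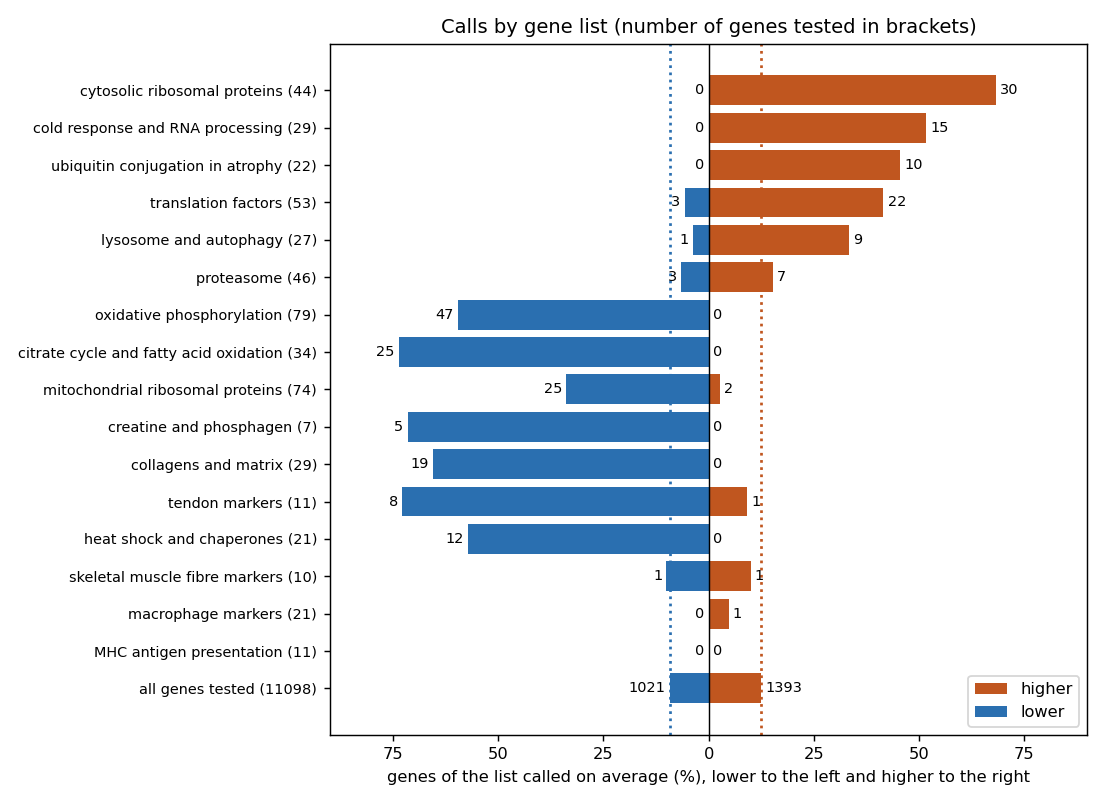
Share of the genes of each list called higher (to the right) and lower (to the left) on average over the genotypes, with lists as rows and percent of tested genes on the x axis. The bottom row and the dotted lines show all 11098 genes, 12.6% higher and 9.2% lower, and the numbers beside the bars are counts of genes. Collagens, tendon, oxidative and chaperone lists extend to the left, and ribosomal, RNA processing and ubiquitin lists to the right.

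Many genes of fuel oxidation fell. Of 79 genes of oxidative phosphorylation 47 fell and none rose (59.5%), with a median of -0.15 (-0.19 in WT, -0.23 in Nfkb1-/- and -0.06 in Bcl3-/- mice), and of 34 genes of the citrate cycle and fatty acid oxidation 25 fell and none rose (73.5%), with a median of -0.18. Responses were alike for 34 of the 79 and 17 of the 34, against 761 of 11098 genes (6.86%), and the others were not shown to be alike. Only genes above the minimum on both scales could be called alike. These were 77 of the 79 and all 34, but 5966 of the 11098, so the share over all genes is a low comparator. Ndufs1 (1425143_a_at), the largest subunit of complex I, was among those with like responses. WT arrays read 841, 920.5, 846 and 810.4 under WB and 619.5, 789, 692 and 649 under HU, and Nfkb1-/- arrays 828, 811, 899 and 858 and then 706, 667, 753 and 632. Bcl3-/- arrays read 3875, 3836, 4027 and 3693 and then 2926, 3091, 2935 and 3298. The groups did not overlap in any genotype. The log2 changes were -0.32 in WT, -0.30 in Nfkb1-/- and -0.33 in Bcl3-/- mice (each ± 0.0804, SE), and no pair of responses differed by more than 1.203-fold within the 95% intervals. Ndufs1 fell by 0.32 on average (SE 0.0464, adjusted p = 3.41e-05).

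Other oxidative genes with like responses were Hadh, a dehydrogenase of fatty acid oxidation, which fell by 0.45, Mdh1, cytosolic malate dehydrogenase, by 0.40, Atp5j, a subunit of ATP synthase, by 0.29, and Esrra, the nuclear receptor ERR-alpha that drives mitochondrial genes, by 0.28. Coq7, an enzyme of ubiquinone synthesis, fell by 0.62 and was called in each genotype. Fabp3, the fatty acid carrier of muscle, fell by 0.99, Lpl, lipoprotein lipase, by 0.49, Cox7a1, a muscle subunit of cytochrome oxidase, by 0.51 and Ppara, the receptor that drives fatty acid oxidation, by 0.64. The average for Ppargc1a, the coactivator of mitochondrial biogenesis, was -0.08 and was not called (adjusted p = 0.552), and its 5 probe sets ranged from -0.52 to -0.08. In separate fits of the 16 WT and Nfkb1-/- arrays and of the 8 Bcl3-/- arrays, which differ in power, 47 and 2 of 79 oxidative phosphorylation genes were called lower. The list median was -0.06 in the Bcl3-/- arrays. For the citrate cycle and fatty acid oxidation the counts were 18 and 5 of 34.

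Enzymes of ketone body use and of the creatine system also fell. Oxct1 (1449059_a_at), the enzyme that lets mitochondria burn ketone bodies, had WT arrays at 736, 751, 642 and 811 and then 464, 621, 366 and 318. The Nfkb1-/- arrays were at 882, 792, 918 and 904 and then 578, 549, 549.8 and 427, and the Bcl3-/- arrays at 4764, 5547, 4529.6 and 4115 and then 1928, 2284, 2230.0 and 2359. Every WB array was above every HU array of its genotype. Oxct1 fell by 0.87 on average (SE 0.0848, adjusted p = 4.98e-07), with -0.78, -0.74 and -1.10 in WT, Nfkb1-/- and Bcl3-/- mice. Bdh1, the first enzyme of ketone body use, fell by 1.89 on average, but its changes of -0.96, -1.18 and -3.52 differed between genotypes (interaction adjusted p = 0.0166).

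Ckmt2 (1428722_at), mitochondrial creatine kinase of muscle, fell by a like amount in the 3 genotypes. Its WT arrays read 2143, 2207, 2151 and 2156 under WB and 1386, 1849, 1177 and 1190.5 under HU. The Nfkb1-/- arrays read 2261, 2217, 2219 and 2380.1 and then 1354, 1404, 1445 and 1294, and the Bcl3-/- arrays 9713, 8693, 10022 and 9531 and then 5428, 6833, 5761 and 6759. The WB arrays of WT mice were almost equal, and all HU arrays lay below the WB arrays of their genotype. Ckmt2 fell by 0.67 on average (SE 0.0620, adjusted p = 3.48e-07), with -0.65, -0.72 and -0.62 in WT, Nfkb1-/- and Bcl3-/- mice, and the intervals allowed no pair of genotypes to differ by more than 1.34-fold. Of 7 creatine and phosphagen genes 5 fell and none rose, among them Ckb, brain-type creatine kinase (-0.44), and Gamt, which makes creatine, at -0.99 with genotypes that differed (interaction adjusted p = 0.0465). Ldhb, the heart-type subunit of lactate dehydrogenase, fell by 0.66, while the 25 genes of glycolysis and glycogen gave 2 higher and 5 lower with a median of 0.01.

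Ribosomal protein and translation genes moved in the other direction. Of 44 cytosolic ribosomal proteins 30 rose and none fell (68.2% against 12.6% of all genes), with a median of 0.20 and with 0.21, 0.14 and 0.22 in WT, Nfkb1-/- and Bcl3-/- mice, and 27 had like responses. Rpl13a (1417608_a_at), a protein of the large subunit, had WT arrays at 1023, 1002, 1131 and 1162 under WB and 1434, 1227, 1315 and 1330.0 under HU. The Nfkb1-/- arrays were at 998, 1056, 1035 and 988 and then 1213, 1263, 1304 and 1346, and the Bcl3-/- arrays at 5676, 5048, 5834 and 5364 and then 7130.4, 6734, 6626 and 6879. HU arrays were above WB arrays in each genotype without overlap. Rpl13a rose by 0.32 ± 0.0422 (SE, adjusted p = 1.33e-05), with 0.30, 0.33 and 0.32 in WT, Nfkb1-/- and Bcl3-/- mice, and no pair differed by more than 1.19-fold within the intervals. Its 4 probe sets ranged from -0.10 to 0.32, and ribosomal proteins have many near-identical pseudogenes that probe sets may not tell apart.

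Rplp2 and Rps19, proteins of the large and the small subunit, rose by 0.30 and 0.34 with like responses. Of 53 translation factors 22 rose and 3 fell (41.5% higher), and like responses were found for 14. Eif5, which triggers start codon recognition, rose by 0.54, Eif3f, a subunit of the scaffold initiation factor, by 0.32, Eef2k, the kinase that inhibits elongation, by 0.45, and Eif4ebp1, the repressor of cap-dependent initiation, by 0.73. The list thus held both activators and inhibitors of translation among its higher members. Mitochondrial ribosomal proteins went the other way in 25 of 74 genes, with 2 higher, and with medians of 0.00 in WT, -0.28 in Nfkb1-/- and 0.01 in Bcl3-/- mice. Of these, Mrpl48 fell by 0.41 and Mrpl36 by 0.35, and the responses of Mrpl36 differed between genotypes (interaction adjusted p = 0.0253). Within the Bcl3-/- arrays none of the 74 was called in limma, and within the WT and Nfkb1-/- arrays 24 were called lower. For cytosolic ribosomal proteins the same settings called 5 and 26 of 44 higher.

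Of 29 genes of RNA processing and cold response 15 rose and none fell (51.7%), with a median of 0.18. Srsf5 (1423130_a_at), an SR protein that selects splice sites, read 254, 307, 354 and 316 under WB and 402, 419, 488 and 474 under HU in WT mice. It read 312, 303, 320.5 and 349 and then 402, 542, 485 and 420.4 in Nfkb1-/- mice, and 1534, 1509.9, 1411 and 1384 and then 2779, 2317, 2265 and 1919.8 in Bcl3-/- mice. The groups were apart in all 3 genotypes. Srsf5 rose by 0.57 ± 0.0656 (SE, adjusted p = 2.40e-06), with 0.54, 0.52 and 0.66 in WT, Nfkb1-/- and Bcl3-/- mice, and was alike within 1.39-fold. The SR proteins Srsf6 and Srsf11 rose by 0.45 and 0.36 with like responses, and the RNA helicase Ddx5 by 0.49.

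**Figure D5:**
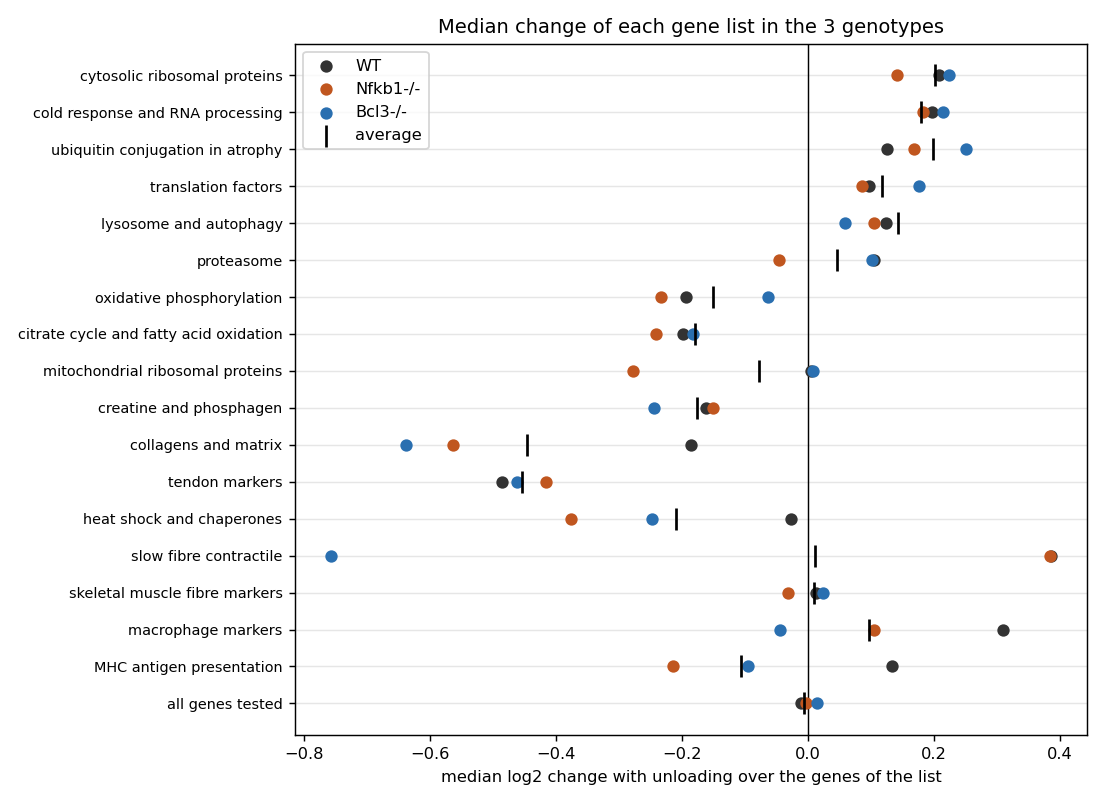
Median log2 change (x axis) of the gene lists in WT, Nfkb1-/- and Bcl3-/- mice, with 1 point per genotype and a tick for the median of the averages. The points lie close together for tendon markers and cytosolic ribosomal proteins and far apart for slow fibre contractile genes, at 0.39, 0.38 and -0.76.

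Heat shock proteins and chaperones fell in 12 of 21 genes and rose in none (57.1%). Dnaja1 (1416288_at), a DNAJ partner of the HSP70 chaperones, was called lower in each genotype. Its WT arrays read 139, 137, 98.9 and 98.2 under WB and 89.2, 85.9, 76.9 and 79.5 under HU. Its Nfkb1-/- arrays read 140.5, 138, 130.5 and 104 and then 78.5, 74.1, 79.1 and 84.0, and its Bcl3-/- arrays 1176, 1102, 1161 and 953 and then 446, 613, 613 and 506. WB and HU arrays were apart in all genotypes, most widely in Bcl3-/- mice. Dnaja1 fell by 0.74 on average (SE 0.0726, adjusted p = 4.98e-07), with -0.50, -0.69 and -1.02 in WT, Nfkb1-/- and Bcl3-/- mice.

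Other chaperones that fell were Hsph1, a nucleotide exchange factor of HSP70 (-0.50, with -0.54, -0.53 and -0.44 in WT, Nfkb1-/- and Bcl3-/- mice), Hspa8, the constitutive HSP70 (-0.40, alike), Hsp90aa1, inducible HSP90 (-0.45), Bag3, an HSP70 cochaperone of the Z-disc (-0.39), and Hspe1, the mitochondrial chaperonin partner (-0.21). Of the inducible HSP70 genes, Hspa1b had responses that differed between genotypes. Hspa1b fell by 0.88 on average, with 0.46 in WT, -0.71 in Nfkb1-/- and -2.41 in Bcl3-/- mice (interaction adjusted p = 0.0253), and its Bcl3-/- WB arrays had a mean of 2259.5 with an SD of 1643. Hspa1a, its near-identical neighbour, gave 0.24, -0.77 and -1.95 but was not among the named genes with an interaction. The list median was -0.03 in WT, -0.38 in Nfkb1-/- and -0.25 in Bcl3-/- mice. Counts on each scale were 8 of 21 lower in WT and Nfkb1-/- arrays and 5 in Bcl3-/- arrays.

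Because the chaperones are known targets of heat shock factors, the 250 bases before the RefSeq start (GRCm38.p6) of 3 that fell are shown 5′ to 3′, with letters that match a simple heat shock element, GAANNTTC or TTCNNGAA on either strand, in capitals. Dnaja1 lies at chr4:40722218-40722467 on the plus strand and its match begins 124 bases before the start. Hsph1 lies at chr5:149636337-149636586 on the minus strand with its match 33 bases before the start. Hspe1 lies at chr1:55087898-55088147 on the plus strand with 3 overlapping matches, the first 89 bases before the start.
Dnaja1: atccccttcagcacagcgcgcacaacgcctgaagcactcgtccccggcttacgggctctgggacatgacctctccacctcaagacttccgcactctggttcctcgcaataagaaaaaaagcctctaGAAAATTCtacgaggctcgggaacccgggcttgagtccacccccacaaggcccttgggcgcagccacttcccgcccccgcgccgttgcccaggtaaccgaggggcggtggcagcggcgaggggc
Hsph1: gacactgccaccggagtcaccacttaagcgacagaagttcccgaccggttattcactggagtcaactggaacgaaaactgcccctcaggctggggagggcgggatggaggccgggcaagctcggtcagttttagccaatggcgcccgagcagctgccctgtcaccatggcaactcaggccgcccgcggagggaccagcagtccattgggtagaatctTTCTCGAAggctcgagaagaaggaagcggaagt
Hspe1: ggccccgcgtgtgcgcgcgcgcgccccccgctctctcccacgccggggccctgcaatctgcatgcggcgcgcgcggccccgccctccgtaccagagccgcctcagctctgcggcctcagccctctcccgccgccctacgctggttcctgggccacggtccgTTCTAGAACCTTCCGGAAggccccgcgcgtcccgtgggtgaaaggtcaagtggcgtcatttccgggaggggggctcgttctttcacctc

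Such a match was found in 12 of 25 promoters of the chaperone list (48%, 17 of 21 genes with a promoter in the table), in 10.4% of the promoters of the 8887 tested genes that had one and in 4218 of all 32851 promoters (12.8%). It was found in 8 of the 15 promoters of the chaperones that fell (53.3%). Other starts of Dnaja1 held none, and neither did the promoters of Bag3. The E-box CACGTG, the letters read by clock factors and by the glucose-sensing factors, was found in 147 of 1478 promoters of genes called higher (9.95%), in 63 of 1053 of genes called lower (5.98%) and in 7.96% of all tested. The promoters of the matrix list held neither motif (0 of 24). These shares are descriptions of letters and not of binding.

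Genes of protein breakdown rose in part. Of 22 ubiquitin conjugation genes linked to atrophy 10 rose and none fell (45.5% higher). Of 27 lysosome and autophagy genes 9 rose and 1 fell (33.3% higher), and of 46 proteasome genes 7 rose and 3 fell (15.2% higher). The share over all genes, 12.6%, is a low comparator, since 21 of the 22, 25 of the 27 and 45 of the 46 passed the minimum on both scales. Of the 9715 probe sets that passed, 1978 were higher. Ube2j1, a ubiquitin-conjugating enzyme of the endoplasmic reticulum, rose by 0.50 and was alike in WT (0.52), Nfkb1-/- (0.49) and Bcl3-/- (0.50) mice, and Cul3, a cullin scaffold, rose by 0.27 with like responses. Fbxo32, the muscle ubiquitin ligase atrogin-1, rose by 1.27 on average (adjusted p = 0.00235) with wide spread, since its group means went from 279 ± 46.5 to 547 ± 249 in WT, from 292 ± 142 to 1063 ± 470.3 in Nfkb1-/- and from 615 ± 152 to 1782 ± 1270 in Bcl3-/- mice (SD, n = 4 each). Its WB and HU arrays overlapped in at least 1 genotype. Map1lc3a and Map1lc3b, the LC3 proteins of the autophagosome, rose by 0.76 and 0.28, the second with like responses, and Ctsl, the lysosomal protease cathepsin L, by 0.45. Psmd4, the ubiquitin receptor of the proteasome, rose by 0.34 with like responses and Psme1, a subunit of its activator cap, fell by 0.30.

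In signalling, receptors and regulators moved in both directions. Of 27 genes of insulin-like growth factor, Akt and FoxO signalling 10 rose and 6 fell with a median of 0.00. Pik3r1, the regulatory subunit of PI3 kinase, rose by 0.91, while Irs1, the docking protein of the insulin receptor, fell by 0.63, Igfbp5, a binding protein of the growth factors, by 0.70, and Ddit4, an inhibitor of mTORC1, by 1.31 (adjusted p = 0.00740). Of 33 myostatin, BMP and TGF-beta genes 11 rose and 4 fell, and the receptors Acvr2b, which binds myostatin, and Tgfbr1 rose by 0.62 and 0.47 on average. The WT arrays of Acvr2b showed no clear rise, at 31.5 to 35.8 under WB and 24.8 to 45.4 under HU. Its HU arrays were above all WB arrays only in Nfkb1-/- and Bcl3-/- mice. Of 21 genes of NF-κB and TNF receptor signalling 4 rose and none fell, of which Traf6, a ubiquitin ligase of the pathway, rose by 0.28 and was alike in WT (0.29), Nfkb1-/- (0.28) and Bcl3-/- (0.28) mice.

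Clock genes rose in 7 of 18 cases and fell in none (38.9% higher against 12.6% of all genes). The list medians were 0.08 in WT, 0.09 in Nfkb1-/- and 0.31 in Bcl3-/- mice, and 1 of the 18 had like responses. Nr1d1, the repressor REV-ERB-alpha, rose by 0.98, and Csnk1e, a kinase of the period proteins, by 0.38. Rora, the activator that competes with REV-ERB, rose by 0.63 on average with 0.14, 0.64 and 1.11 in WT, Nfkb1-/- and Bcl3-/- mice (interaction adjusted p = 0.0442). The E-box was present in 5 of 24 promoters of the clock list (20.8%).

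Among genes with like responses, those with the largest changes came from varied functions. Ptch1 (1428853_at), the hedgehog receptor, read 24.6, 24.7, 31.2 and 24.5 under WB and 39.6, 40.7, 44.6 and 44.3 under HU in WT mice. It read 24.9, 25.7, 28.9 and 30.7 and then 36.7, 56.7, 47.0 and 31.1 in Nfkb1-/- mice, and 174, 249.9, 168 and 142 and then 279, 276, 314 and 306 in Bcl3-/- mice. The groups did not overlap, although the lowest Nfkb1-/- HU array was just above the highest WB array. Ptch1 rose by 0.67 ± 0.0891 (SE, adjusted p = 1.30e-05), with 0.69, 0.61 and 0.71 in WT, Nfkb1-/- and Bcl3-/- mice, but its second probe set gave 0.05.

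Snhg8, a host gene of small nucleolar RNA, rose by 0.60, Ing2, a reader of histone methylation, by 0.56, Elk4, a partner of serum response factor, by 0.55, Kat2b, a histone acetyltransferase, by 0.50, and Oga, which removes O-GlcNAc from proteins, by 0.50. In the lower direction Rcan2, an inhibitor of calcineurin, fell by 0.59, Khdrbs3, an RNA-binding splicing regulator, by 0.56, Afg1l, a mitochondrial ATPase, by 0.61, and Phyh, a peroxisomal hydroxylase, by 0.48. Structural genes of the fibre could also be alike, as Des, the intermediate filament desmin, rose by 0.28 and Mb, myoglobin, fell by 0.19.

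Several averages describe no genotype. Myl2 (1448394_at), the regulatory light chain of slow and cardiac myosin, read 1035, 990.1, 1343 and 1141 under WB and 1190.0, 1517, 1249.8 and 1589.8 under HU in WT mice. It read 682, 1136, 939 and 1225 and then 456, 1695, 1436 and 1367 in Nfkb1-/- mice, and 5052, 5015, 4897 and 4878 and then 784, 718, 1177 and 845 in Bcl3-/- mice. WB and HU arrays overlapped in WT and Nfkb1-/- mice and were far apart in Bcl3-/- mice. The average of -0.68 was called (adjusted p = 0.00246), while the genotypes gave 0.30, 0.19 and -2.52 (interaction adjusted p = 0.000365), and without the Bcl3-/- arrays the average was 0.25 and not called. Over 10 slow fibre contractile genes the medians were 0.39 in WT, 0.38 in Nfkb1-/- and -0.76 in Bcl3-/- mice, and 6 of the 10 had an interaction. Myh7, the slow myosin heavy chain, gave 0.58, 0.58 and -0.73, and Tnni1, slow troponin I, gave 0.63, 0.49 and -1.18. Myl3, the slow essential light chain, was called lower on average at -0.51. Among fast fibre genes 1 of 14 rose and 3 fell, with -0.52 for Tpm2, beta tropomyosin, and -0.70 for Myh2, the fast oxidative myosin. The summed slow fibre genes went from 5419 to 7175 under WB to 6641 to 9081 under HU in WT mice. They went from 3944 to 6097 to 3806 to 8175 in Nfkb1-/- mice and from 33361 to 39245 to 18657 to 21431 in Bcl3-/- mice, and their part in the fall of the oxidative genes was not tested.

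The other averages with the smallest interaction p joined genotypes that differed in direction or in size. Tial1, an RNA-binding protein of stress granules, gave -1.10 in WT, 0.41 in Nfkb1-/- and 0.21 in Bcl3-/- mice (interaction adjusted p = 2.91e-06). Nfia, a nuclear factor I protein, gave -1.62, -0.17 and 0.20 in that order of genotypes, and Pgap2, a GPI anchor maturation factor, -1.26, -0.40 and 0.12. Itgb6, an epithelial integrin subunit, gave -0.30, -1.53 and 0.03, and Trim34a, a tripartite motif protein, -1.18, 0.00 and -0.01 at intensities near the minimum in WT and Nfkb1-/- mice, with means of 20.3 and 8.93 in WT WB and HU mice.

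Genes of immune cells gave few calls on average. Of 21 macrophage markers 1 rose and none fell, with medians of 0.31 in WT, 0.10 in Nfkb1-/- and -0.04 in Bcl3-/- mice, and their sums overlapped in each genotype, at 573 to 717 and 696 to 1142 in WT, 717 to 922 and 730.5 to 1313 in Nfkb1-/- and 4150.4 to 5289 and 4068 to 4614 in Bcl3-/- mice. The member that rose was Lgals3, galectin-3, at 1.38 with 2.02, 1.7 and 0.40 in the 3 genotypes. Of 8 neutrophil markers 3 rose, S100a9 and S100a8, the subunits of calprotectin, and Lcn2, lipocalin-2. Only 2 of the 8 were above an intensity of 20 on at least 4 arrays of each scale. S100a9 (1448756_at) read 3.52, 3.50, 3.52 and 3.31 under WB and 5.17, 7.82, 9.13 and 5.59 under HU in WT mice, all under the intensity of 20 used as a minimum. In Nfkb1-/- mice it read 9.50, 4.58, 5.67 and 11.7 and then 58.6, 21.1, 22.3 and 47.4, and in Bcl3-/- mice 21.9, 16.4, 21.4 and 29.4 and then 244, 292, 189 and 83.9. HU arrays were above WB arrays throughout. S100a9 rose by 2.08 ± 0.200 on average (SE, adjusted p = 4.98e-07), with 0.96 in WT mice, where it was not called (adjusted p = 0.123), and 2.20 and 3.07 in Nfkb1-/- and Bcl3-/- mice. S100a8 rose by 2.02 and Lcn2 by 1.59, the latter from a mean of 5.10 to 9.01 in WT mice. The summed neutrophil markers went from 39.6 to 50.3 under WB to 51.7 to 124 under HU in WT, from 43.8 to 55.9 to 89.2 to 167 in Nfkb1-/-, and from 281 to 297 to 429 to 1047 in Bcl3-/- mice.

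Granule genes of neutrophils were not called on average. Ngp, neutrophilic granule protein, had group means of 8.96 ± 0.77 and 8.54 ± 0.200 in WT WB and HU, 9.61 ± 0.70 and 9.78 ± 2.09 in Nfkb1-/- and 75.7 ± 6.72 and 88.2 ± 23.6 in Bcl3-/- mice (SD, n = 4 each), and Mpo, myeloperoxidase, had 3.91 and 3.14, 3.25 and 3.67, and 23.7 and 20.5. In WT and Nfkb1-/- mice all arrays of these genes lay under the minimum of 20. Camp, cathelicidin, had group means of 3.94 to 4.17 in those mice, and in Bcl3-/- mice read 31.6, 33.8, 32.8 and 31.8 under WB and 77.3, 34.4, 31.1 and 27.9 under HU, so that HU replicate 1 stood apart. Elane, neutrophil elastase, had group means of 7.91 to 8.53 in WT and Nfkb1-/- mice and of 40.9 and 42.6 in Bcl3-/- WB and HU mice. Of 11 genes of MHC antigen presentation none was called on average, and of 22 interferon response genes 1 was lower.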

How the data were processed

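RNA of 24 muscle samples was hybridised to Affymetrix 430A 2.0 arrays, and the authors read the scanner files into GenePattern and deposited 1 table of linear intensity values made with RMA and quantile normalization. How the Bcl3-/- arrays came to another scale is not given in the sources used here. Every value column was used. Precision is limited by the 4 arrays a group. The p-values rest on the spread between mice within groups, pooled over the 6 groups and drawn by limma toward that of all probe sets. A probe set therefore has the same error in each genotype, also where the arrays of a group spread more widely.

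Of 22690 probe sets, 64 were controls. The platform annotation listed 20380 of the other 22626 with 1 gene, 691 with several and 1555 with none, and gene names were updated where RefSeq had a current symbol (11082 of 11098 tested genes). Probe sets with an intensity above 20 on at least 4 arrays were tested, which kept 19294, of which 9715 also passed on each intensity scale alone (the 16 WT and Nfkb1-/- arrays, and the 8 Bcl3-/- arrays). Log2 intensities were fitted with 1 mean a group in limma 3.58.1 and R 4.3.3 (lmFit, contrasts.fit, eBayes, 18 residual and 5.89 prior degrees of freedom), and the average contrast weighted the 3 genotypes equally. A Benjamini-Hochberg adjusted p under 0.05, over all tested probe sets, made a call. Differences between genotypes were tested with limma's moderated F test of the interaction. The script was tested on simulated data.

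The 49 gene lists (1250 genes on the array), the rule for named genes and the tests were chosen with earlier results of these data known. The rule took the 15 higher and 15 lower genes with the largest average change and no overlap of arrays in any genotype, up to 4 called members of each list, the 8 higher and 8 lower genes with the largest like responses, and the 6 with the smallest interaction p. Fbxo32, Hspa1a, Hspa1b, Hsph1, Hspe1, Col3a1, Prg4, Ngp, Camp, Elane, Mpo, Ddit4, Ppargc1a, Myh7, Tnni1 and Bcl3 were also named after their values were seen. Of several probe sets of a gene the brightest was taken. Promoters (250 bases before the start) came from RefSeq, GRCm38.p6. The alternatives were other filters, scalings, offsets and models, fewer genotypes, each array left out in turn and the replicate number as a block. Leaving out 2 Bcl3-/- WB arrays together, and counting list members on each scale, were chosen after seeing the data.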

Additional observations from a re-analysis of the deposited data

Results flagged for a closer look

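In 4 of the 84 groups of 4 arrays examined for the 14 genes whose arrays are printed, 1 array stood away from the rest. The gap to its nearest neighbour as a share of the group's range was 0.948 for Sln in WT HU muscle (replicate 1, 1024), 0.891 for S100a9 in WT WB muscle (replicate 4, 3.31), 0.901 for Col1a1 in WT HU muscle (replicate 2, 545) and 0.979 for Ptch1 in WT WB muscle (replicate 3, 31.2). Chance flags about 1 in 20 groups.

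Of the 131 genes considered for naming, 17 had responses to unloading that differed between genotypes by limma's interaction test. Among genes called on average the adjusted p was 2.91e-06 for Tial1, 0.000365 for Trim34a, 0.000365 for Myl2, 0.000545 for Pgap2, 0.000545 for Itgb6 and 0.00193 for Nfia. It was 0.0166 for Bdh1, 0.0236 for Gstm2, 0.0253 for Mrpl36, 0.0253 for Hspa1b, 0.0392 for Pcp4l1, 0.0414 for Chrnb1, 0.0442 for Rora and 0.0465 for Gamt. The slow fibre genes Myh7 (0.0141) and Tnni1 (0.0158) differed without being called on average. Mustn1, a small nuclear protein of muscle and skeletal tissue, rose by 1.75 in WT, 1.15 in Nfkb1-/- and 0.19 in Bcl3-/- mice (interaction adjusted p = 0.00590). The last of these changes was not called (adjusted p = 0.534).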

How the results depend on the processing

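Of 124 named genes called on average, 1 (Tial1) lost its call when an array was left out, 3 (Tial1, Hspa1b and Myl2) lost it under some other scaling, filter or model, and none of these changed sign. With only some genotypes 53 lost their call at least once and 5 changed sign. The changed signs were those of Tial1 (0.21 in Bcl3-/- arrays alone, 0.31 in Nfkb1-/- and Bcl3-/- arrays), Nfia (0.20 and 0.018 in the same settings), Pgap2 (0.12 in Bcl3-/- arrays alone), Itgb6 (0.029 in Bcl3-/- arrays alone) and Myl2 (0.25 in WT and Nfkb1-/- arrays). Leaving out 1 array gave 2029 to 2656 probe sets higher and 1409 to 1855 lower on average, 46 to 113 higher and 23 to 60 lower in each genotype, 946 to 1293 alike and 79 to 276 with an interaction. On average, 266 higher and 238 lower reached 1.4-fold, 1474 were higher in WT and Nfkb1-/- arrays, 799 higher and 242 lower in Bcl3-/- arrays, 1613 higher and 685 lower in WT and Bcl3-/- arrays, and 2742 lower with array weights. In each genotype, array weights gave 266 higher and 192 lower, a filter within each intensity scale 119 higher, quantile normalization 84 (within scales) or 80 (all arrays) lower, leaving out the 2 Bcl3-/- WB arrays with the largest deviations 35 higher, and the methods' t-test 156 higher and 123 lower at an unadjusted p under 0.05 and 0 and 0 after Benjamini-Hochberg adjustment. Alike were 2141 with array weights and 2367 when 2-fold was allowed. With an interaction were 277 with the filter within scales, 438 with log2 of the intensity plus 16, 455 with array weights and 59 without the 2 Bcl3-/- WB arrays. Same-numbered replicates did not deviate together (r from -0.17 to 0.22), and the replicate block gave 2123 higher and 1417 lower on average, 44 higher and 35 lower in each genotype, 916 alike and 100 with an interaction. The cause of these shifts was not tested. No scaling moved the median of all probe sets by 0.1 log2 units. On the WT and Nfkb1-/- arrays 9722 of 19294 tested probe sets passed the intensity minimum, against 19285 on the Bcl3-/- arrays.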

Other observations

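Genes of several other functions were called on average. Chrna1, the alpha subunit of the endplate acetylcholine receptor, rose by 0.82, and of 16 genes of the receptor and of denervation 5 rose and 1 fell (background 12.6% and 9.2% of all genes). Chac1, which degrades glutathione and is a target of amino acid stress, rose by 1.76, while 3 of 24 genes of that stress response rose and 1 fell. Among endothelial markers 2 of 16 rose and 3 fell. Cldn5, a tight junction protein, rose by 1.01 and Egfl7, a secreted vascular protein, by 0.50, although the probe sets of Egfl7 ranged from 0.10 to 0.50, and Emcn, a sialomucin of venous endothelium, fell by 0.46.

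Of 25 cell cycle genes 2 rose and 5 fell, and the D cyclins Ccnd1 and Ccnd2 fell by 1.11 and 0.52, the second with probe sets from -0.52 to -0.02. Mbp, myelin basic protein, rose by 0.78 on its brightest probe set, with 8 probe sets from 0.01 to 0.94. Of 5 tested Schwann cell and nerve markers 2 rose, and 2 of the 5 were above the minimum on both scales. Srebf1, a regulator of lipid synthesis, rose by 0.71, and of 15 genes of fatty acid and sterol synthesis 4 rose and 1 fell. Of 8 adipocyte markers 3 rose and none fell, with medians of -0.11 in WT, 0.51 in Nfkb1-/- and 0.13 in Bcl3-/- mice. Their summed intensity was 837 to 1039 in WT WB and 901 to 1037 in WT HU muscle, 819 to 1140.1 and 1074 to 1385 in Nfkb1-/- mice, and 5350.2 to 6245 and 5747 to 6817 in Bcl3-/- mice, and their part in the rise of the lipid genes was not tested. Of 15 p53 pathway genes 6 rose and 1 fell. Of 8 satellite cell markers 3 rose and none fell, and 3 of the 8 were above the minimum on both scales.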
